A study of Mus musculus with 7 samples.

Results

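ATP-dependent chromatin remodellers are multi-subunit machines that use ATP to slide, eject or exchange nucleosomes, and so set which stretches of DNA are open to transcription factors. Each family is built around a motor of the SNF2 type (BAF, ISWI, CHD, INO80) together with subunits that bind histone marks, DNA or other proteins. BAF complexes come as canonical BAF, PBAF and non-canonical BAF, which share a core and differ in a few defining subunits. Brd9, the gene deleted in the study, encodes the bromodomain subunit of non-canonical BAF, next to Gltscr1 or its paralog Gltscr1l. In blood formation, BAF and CHD remodellers are known for their part in stem cell maintenance and lineage choice.

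The genes described here are 46 remodeller genes, picked by symbol among the 35976 rows of a gene count table: 25 BAF family subunits, 6 ISWI genes, 7 CHD motors, 5 INO80, SRCAP and EP400 genes and 3 other SNF2 motors. Brd7 and Brd9 were left out of the list. All 46 symbols had a row, and all 46 passed the filter on low counts, as did 14679 genes in all. They were listed by name rather than by their values in these samples, although with earlier results of these data known.

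RNA was taken from lineage-negative fetal liver cells of C57BL/6 mouse embryos at stage E14.5, the blood progenitor fraction left after magnetic removal of cells with mature lineage markers. The knockout group had 4 libraries of genotype CD45.2(+) Vav1-iCre Brd9fl/fl, and the control group 3 libraries of genotype CD45.2(+) Brd9fl/fl, so every embryo carried loxP-flanked Brd9 alleles. Vav1 drives the recombinase in blood cells and their endothelial precursors, and cells of other types in the fraction keep Brd9. The controls carried no recombinase, so effects of the recombinase and of Brd9 loss cannot be told apart. Whether a library is 1 embryo or a pool is not given in the sources used here, and the p-values given here describe library-to-library spread alone, part of which may be technical.

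Libraries held between 18748885 and 23571878 counts, of which 0.579% to 0.711% fell on the 46 genes. Brd9, the check of the labels, had 8.57, 11.9, 13.2 and 12.2 CPM (counts scaled to a common library total) in the knockouts, against 30.6, 32.2 and 36.5 CPM in the controls. Every progenitor marker listed (10 of 10, among them Kit, Cd34 and Myb) was detected, and 8 of the 10 had a lower mean in the knockouts with 0 passing, at a summed 684.5 to 930.1 CPM in knockouts and 904 to 1223 CPM in controls. The median log2 fold change of these markers was -0.08, and Gata2 and Mecom had higher means in the knockouts. Kit, a receptor of blood progenitors, had 159.9, 204, 202 and 212 CPM in the knockouts and 267, 313 and 301 CPM in the controls, without overlap. Cd34 had 55.6, 85.6, 85.1 and 87.2 CPM in the knockouts and 64.9, 117 and 54.5 CPM in the controls. Gata2 had 68.2, 95.4, 92.4 and 96.0 CPM in the knockouts and 51.8, 88.5 and 47.0 CPM in the controls. Neutrophil markers moved with the groups: 11 of 12 had a lower mean in the knockouts, 5 of them passed the edgeR test given below as lower, and none was at 0, with a summed level of 1603 to 3698 CPM in knockouts and 4787 to 8489 CPM in controls. Of 6 tested mast cell, basophil and eosinophil markers 5 had a lower mean and 1 passed as lower. Their list summed to 182 to 635 CPM in knockouts and 260 to 558 CPM in controls. Epx had 4.64, 2.39, 3.88 and 2.63 CPM in the knockouts and 37.6, 81.4 and 66.5 CPM in the controls, while the other genes of that list overlapped between groups. Of 10 macrophage and monocyte markers 8 had a lower mean and 0 passed, at 184 to 582 CPM in knockouts and 441 to 530 CPM in controls, and none was at 0. All 10 hepatocyte markers had a higher mean in the knockouts and 0 passed, at 13390 to 23960 CPM in knockouts and 10580 to 18540 CPM in controls. Likewise 8 of 10 erythroid markers (3625 to 4801 CPM in knockouts, 2312 to 3718 CPM in controls) and 7 of 7 stromal markers (23.0 to 112 CPM and 20.9 to 65.6 CPM) had higher means, and 6 of 6 endothelial markers (89.2 to 127 CPM and 103 to 178 CPM) lower means, with 0 passing and none at 0. In bulk RNA, fewer cells of a type and less RNA per cell cannot be told apart, and the part of cell composition in the values below was not tested.

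Knockout replicate 3 stood apart in a way that touches these genes. Its level fell off with gene length. Over all genes with at least 1 CPM, its log2 CPM relative to the mean of the other knockouts had a median of 0.20 for genes with under 2 kb of exons and -0.21 for those over 8 kb. Remodeller genes are long, with a median exon length of 7881 bases against 4267 bases over all tested genes. Of the 21 members over 8 kb, 19 were below the other knockouts in this library, with a median of -0.43 on that scale. The 5 members under 4 kb (Ruvbl1, Ruvbl2, Smarcd2, Bcl7b and Actl6a) were all above, by 0.11 to 0.30. Across the 45 members with at least 1 CPM, this deviation and log10 length had a Pearson correlation of -0.47 in knockout replicate 3. It was 0.49 in replicate 4, 0.50 in replicate 2 and -0.08 in replicate 1. Control replicates 1, 2 and 3, each set against the other controls, had -0.41, 0.39 and -0.21. Over all genes it was -0.30 in knockout replicate 3 and -0.13 to 0.21 in the other libraries. Since each library is set against the others of its group, a fall in 1 knockout raises the values of the other knockouts. The points of each library share its RNA and preparation, so these correlations only describe the libraries. Knockout replicate 3 was the lowest of all 7 libraries for 24 of the 45 members, where it was the lowest for 23.7% of all tested genes. It also held T cell transcripts, with Cd3g at 18.2 CPM against 0.437, 0.723 and 1.02 CPM in the other knockouts and 0.0461 to 0.644 CPM in the controls, and Cd3e at 3.46 CPM and at 0 in the other 6 libraries. Its mast cell, basophil and eosinophil marker sum (635 CPM) and stromal marker sum (112 CPM) were the highest of the knockouts. So were its neutrophil (3698 CPM), macrophage and monocyte (582 CPM) and erythroid (4801 CPM) sums. Its hepatocyte (13390 CPM), megakaryocyte (491 CPM) and endothelial (89.2 CPM) sums were the lowest of the knockouts. The part of these transcripts in the members' values was not tested.

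**Figure D1:**
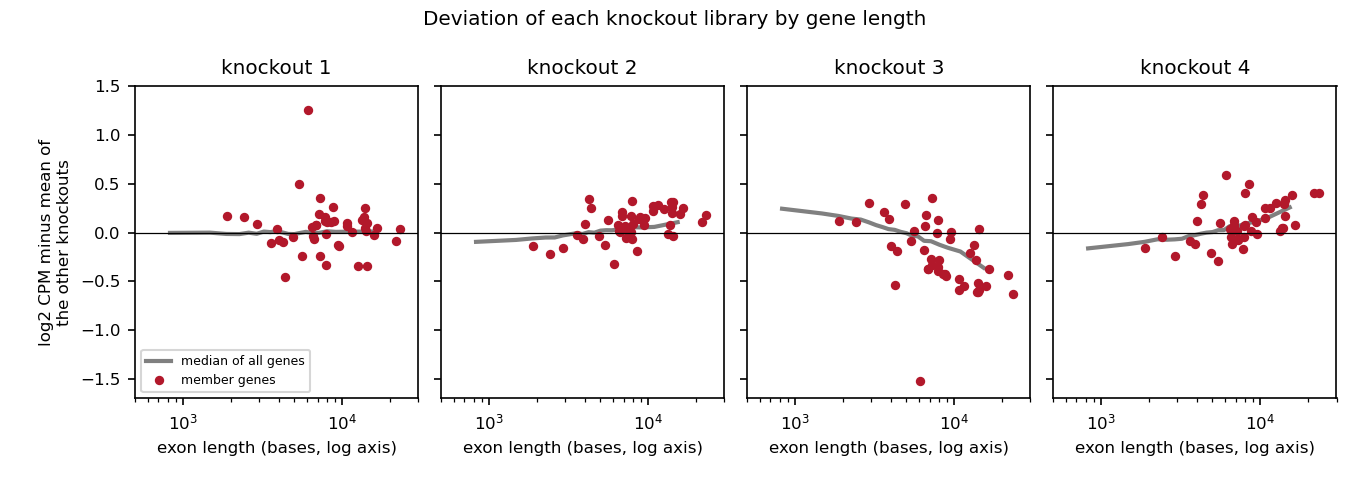
Log2 CPM of each knockout library minus the mean of the other 3 knockouts (y axis) against exon length in bases (log x axis), for 45 remodeller genes (points) and as the median of all genes in length bins (grey line). In knockout 3 the line falls with length and 19 of the 21 members over 8 kb lie below 0.

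No remodeller gene passed the test. edgeR's quasi-likelihood test, with p-values adjusted by Benjamini-Hochberg over all 14679 tested genes, called 0 of the 46 members at an adjusted p under 0.05, where it called 0.559% of all tested genes (0.0136% as higher and 0.545% as lower in the knockouts). At an unadjusted p under 0.05 there were 5 members, 3 higher and 2 lower in the knockouts, which is a share of the list close to the 10.9% of all tested genes (3.95% higher and 6.9% lower). The groups did not overlap in CPM for 4 members, 2 higher and 2 lower, where this held for 11.2% of all tested genes (4.38% higher and 6.81% lower). Without knockout replicate 3 it held for 5 members, 3 higher and 2 lower, and for 17.7% of all tested genes. DESeq2 called 3 members, Gltscr1l and Dpf1 higher and Chd7 lower, where it called 2.68% of the genes it gave an adjusted p (0.409% higher and 2.27% lower), and limma-voom called 0 of 46, where it called 0.504%. The authors' deposited table also puts Gltscr1l, Dpf1 and Chd7 at an adjusted p under 0.05, where it puts 2.19% of its genes (0.31% higher and 1.88% lower).

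The differences were small. The median log2 fold change, knockout over control, was -0.04 over the members and 0.01 over all tested genes, with 27 members below 0 and 19 above, where 47.6% of all tested genes were below 0. Without knockout replicate 3 the members' median was -0.01, with 24 below and 22 above 0. With the length trend of each library removed, the balance turned, with 18 members below and 28 above 0 and a median of 0.02. For 36 of the 46 members the 95% interval of the fold change lay within 1.5-fold either way, a larger share than the 57.2% of all tested genes. For 43 members it lay within 2-fold, where it did for 11527 of all 14679 tested genes. The part of read depth in these shares was not tested. The 3 members whose intervals reached past 2-fold were Dpf1, Smarca1 and Smarcd3. For Dpf1 the interval (0.35 to 1.25 on the log2 scale) lay around the largest estimate of the members, 0.80. The intervals of Smarca1 (-0.88 to 1.11) and Smarcd3 (-1.17 to 0.96) spanned 0. All 3 are among the members with the fewest reads (Smarcd3 had 5 to 17 reads a library).

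**Figure D2:**
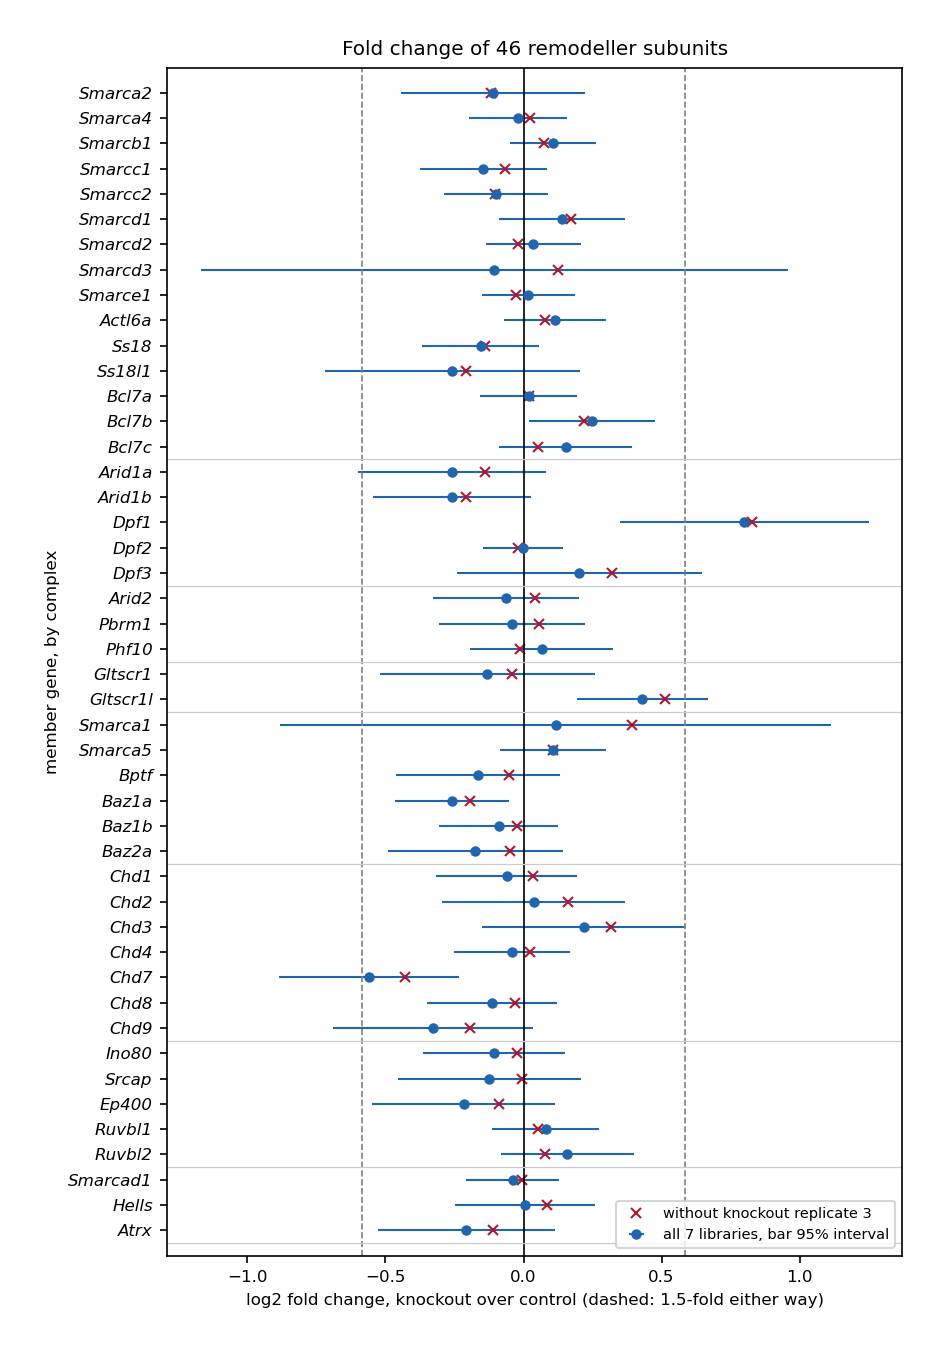
Log2 fold change, knockout over control, of the 46 member genes grouped by complex: points and bars are edgeR estimates with 95% intervals from all 7 libraries, crosses the estimates without knockout replicate 3, and dashed lines mark 1.5-fold. For 36 members the bar stays between the dashed lines, and Gltscr1l, Dpf1 and Chd7 lie farthest from 0 relative to their bars.

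**Figure D3:**
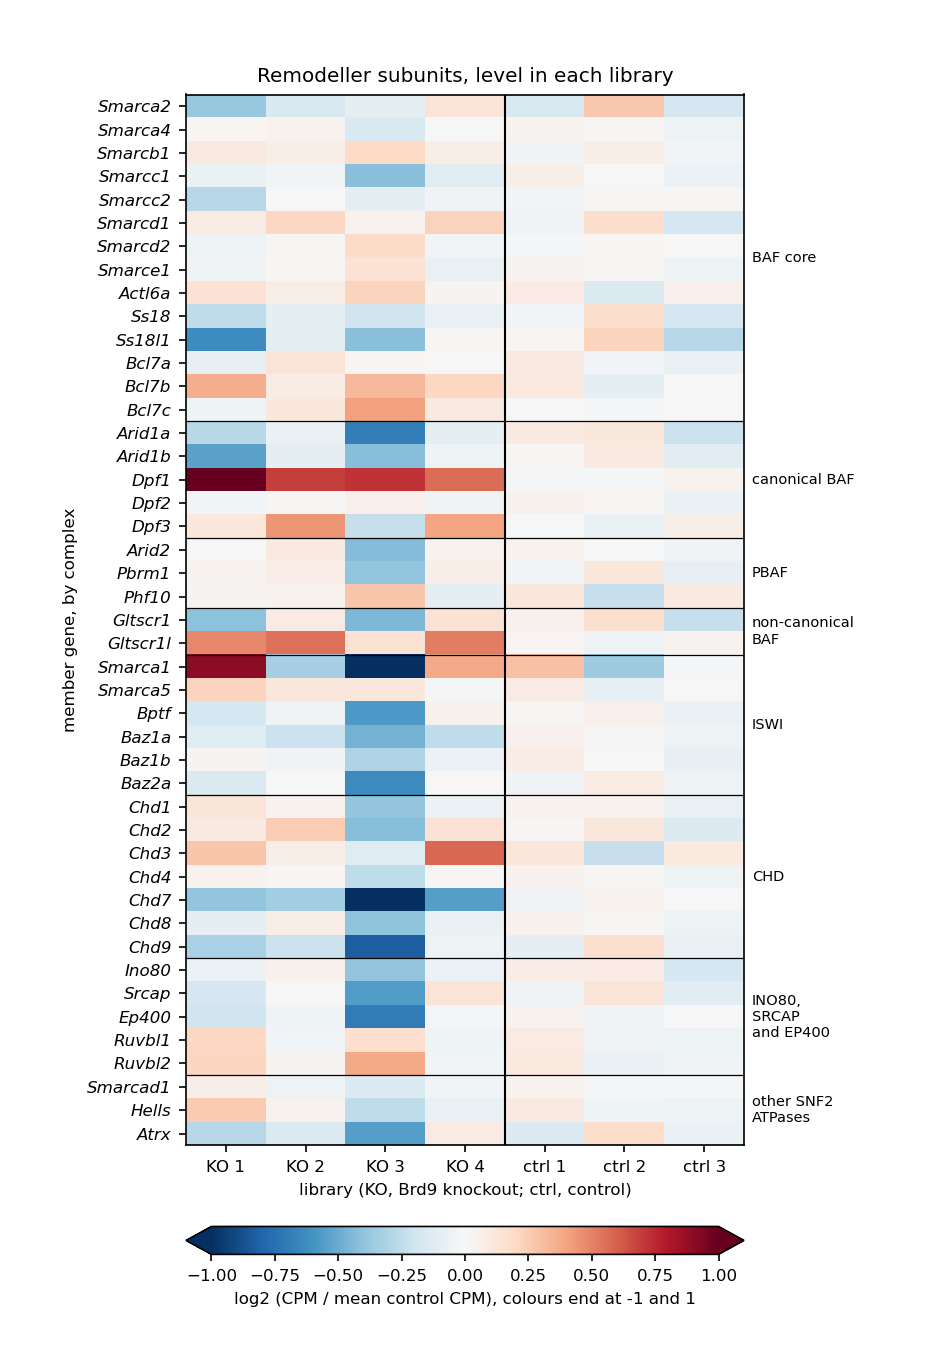
Level of 45 member genes in each library as log2 of CPM over the mean control CPM, knockouts left of the line and controls right of it (Smarcd3, below 1 CPM, is left out; colours end at -1 and 1). Dpf1 and Gltscr1l are above the control mean in all 4 knockouts and Chd7 and Baz1a below it, and knockout 3 is low in most long genes.

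Of the defining partners of Brd9 in non-canonical BAF, Gltscr1l had a higher mean in the knockouts, while Gltscr1 overlapped between groups. Gltscr1l (chromosome 17, 46798120 to 46858482, minus strand, GRCm38) had 69.7, 73.4, 55.3 and 71.4 CPM in the knockouts, against 50.6, 48.2 and 51.3 CPM in the controls. Each knockout was above each control, and knockout replicate 3 was the nearest to them. The log2 fold change was 0.43 (SE 0.11, 95% interval 0.19 to 0.67), a 1.35-fold difference that did not pass in edgeR (adjusted p = 0.139) and passed in DESeq2 (adjusted p = 0.024). The authors' deposited table gives it a log2 fold change of 0.43 with an adjusted p = 0.032. Without knockout replicate 3, edgeR gave a log2 fold change of 0.51 (SE 0.07) with an adjusted p = 0.016, in a fit that called 0.825% of all tested genes. In the annotation, 772 exon bases of Gltscr1l lie under the non-coding gene Gm26904 on the opposite strand, and the strand setting of the counting is not given in the sources used here.

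Gltscr1 (chromosome 7, 15970672 to 16047921, minus strand), the paralog that competes for the same place in the complex, had 22.2, 31.2, 21.6 and 32.6 CPM in the knockouts, against 30.3, 33.0 and 25.1 CPM in the controls. The groups overlapped, and knockout replicates 1 and 3 were the lowest of the 7 libraries. Its log2 fold change was -0.13 (SE 0.17, 95% interval -0.52 to 0.26; edgeR adjusted p = 0.819), and -0.04 without knockout replicate 3. Per length, in FPKM (CPM per kilobase of exons), Gltscr1l made up 78.5%, 73.2%, 74.8% and 71.8% of the pair in the knockouts and 65.9%, 62.9% and 70.4% in the controls. The knockout shares all lay above the control shares, and the mean was 8.16 percentage points higher in the knockouts. The summed FPKM of the pair averaged 13.2 ± 1.8 in the knockouts (SD, n = 4) and 11.0 ± 0.3 in the controls (SD, n = 3), and the groups overlapped at knockout replicate 3.

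**Figure D4:**
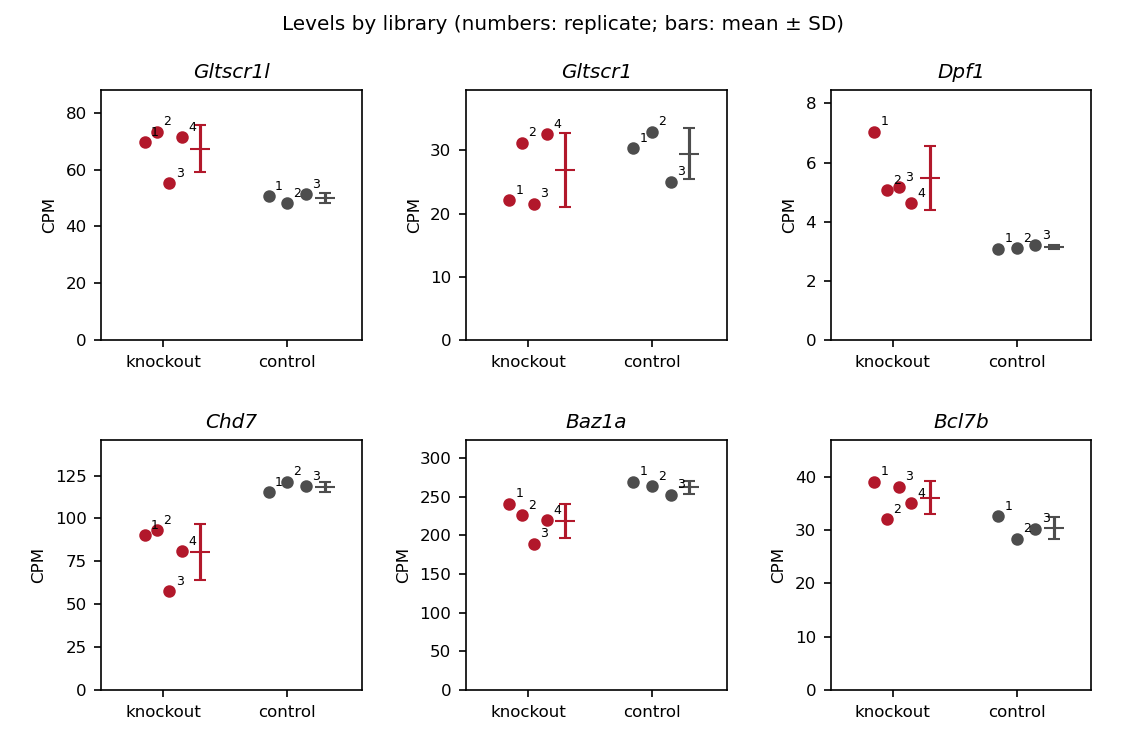
CPM of Gltscr1l, Gltscr1, Dpf1, Chd7, Baz1a and Bcl7b in each library (points, numbered by replicate) with the group mean ± SD, 4 knockouts left and 3 controls right. The groups are apart for Gltscr1l, Dpf1, Chd7 and Baz1a, and overlap for Gltscr1 and Bcl7b.

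Among the subunits that define canonical BAF, Dpf1 had the largest fold change of the 46 members, at a low level. Dpf1 (chromosome 7, 29303951 to 29318243, plus strand), a histone reader of the double PHD finger family best known from neurons, had 7.05, 5.06, 5.16 and 4.63 CPM in the knockouts, against 3.09, 3.10 and 3.22 CPM in the controls. Its reads numbered 129, 112, 109 and 95 in the knockouts and 67, 75 and 70 in the controls, and the groups did not overlap. The log2 fold change was 0.80 (SE 0.20, 95% interval 0.35 to 1.25), which did not pass in edgeR (adjusted p = 0.147) and passed in DESeq2 (adjusted p = 0.025). The authors' deposited table gives 0.80 with an adjusted p = 0.030. Without knockout replicate 3 the edgeR adjusted p was 0.157.

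Dpf2 was the most abundant of the 3 Dpf genes. Dpf2, the broadly expressed reader of canonical BAF, had 109, 112, 115 and 108 CPM in the knockouts and 114, 112 and 106 CPM in the controls, with a 95% interval of -0.15 to 0.14 on the log2 scale. Per length, Dpf1 was 1.52% ± 0.32 of the summed FPKM of Dpf1, Dpf2, Dpf3 and Phf10 in the knockouts (SD, n = 4) and 0.907% ± 0.080 in the controls (SD, n = 3). Phf10, the PBAF member of that family, took 69.2% to 73.9% in knockouts and 67.3% to 72.9% in controls, and Dpf2 23.5% to 26.9% and 24.4% to 29.7%. Dpf3 had 5.83 ± 1.19 CPM in knockouts and 5.07 ± 0.22 CPM in controls. The groups overlapped through knockout replicate 3 alone (4.31 CPM): the other knockouts had 5.46, 6.86 and 6.68 CPM and the highest control 5.29 CPM. Its log2 fold change was 0.20, and 0.32 without knockout replicate 3.

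The large ARID subunits, which bind DNA and anchor canonical BAF, had lower means in the knockouts and did not pass. Arid1a had 220, 254, 165 and 251 CPM in the knockouts, against 282, 287 and 229 CPM in the controls (log2 fold change -0.26, SE 0.15; edgeR adjusted p = 0.597). Control replicate 3 lay among the knockouts, and knockout replicate 3 was the lowest. Arid1b, its alternative in the complex, had 43.3, 58.9, 46.6 and 60.7 CPM in the knockouts, against 63.2, 66.7 and 58.3 CPM in the controls (log2 fold change -0.26, SE 0.13; edgeR adjusted p = 0.515). Here too the lowest control lay inside the knockout range. Without knockout replicate 3 the log2 fold changes were -0.14 for Arid1a and -0.21 for Arid1b.

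PBAF is marked by Arid2, by the multi-bromodomain protein Pbrm1 and by the PHD finger protein Phf10. Arid2 had 144, 154, 107 and 148 CPM in the knockouts and 148, 145 and 141 CPM in the controls. Pbrm1 had 174, 177, 129 and 177 CPM in the knockouts and 166, 182 and 160 CPM in the controls. In both, knockout replicate 3 was far below the other 6 libraries, and the sign of the fold change turned without it, from -0.06 to 0.04 for Arid2 and from -0.04 to 0.06 for Pbrm1 on the log2 scale. Phf10 had 230, 230, 273 and 210 CPM in the knockouts and 243, 192 and 240 CPM in the controls, with its highest value in knockout replicate 3. The groups overlapped for all 3 genes, and each 95% interval lay within 1.5-fold.

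None of the 15 BAF genes listed as core, a group that also holds subunits found in only some forms of BAF, separated the groups. Of these, 8 had a log2 fold change above 0 and 7 below, with a median log2 fold change of 0.02, and 13 had a 95% interval within 1.5-fold. The motor Smarca4 had 401, 406, 355 and 397 CPM in the knockouts, against 405, 399 and 382 CPM in the controls, with a 95% interval of -0.20 to 0.16 for the log2 fold change. Its paralog Smarca2 had 27.2, 31.8, 33.1 and 38.7 CPM in the knockouts, against 31.8, 42.6 and 31.4 CPM in the controls (95% interval -0.44 to 0.22). Smarca2 was the minor motor in every library, at 2.98% to 4.24% of the pair's FPKM in knockouts and 3.44% to 4.63% in controls (group means of 8.30% and 8.76% with the longest transcript as length).

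The core members with the smallest unadjusted p were Bcl7b, Ss18 and Smarcb1. Bcl7b, one of 3 related small subunits, had 39.1, 32.1, 38.2 and 35.1 CPM in the knockouts, against 32.6, 28.4 and 30.3 CPM in the controls, with 1 overlap between knockout replicate 2 and control replicate 1. Its log2 fold change was 0.25 (SE 0.10, 95% interval 0.02 to 0.48; edgeR adjusted p = 0.420). Ss18, which joins the motor module of canonical and non-canonical BAF, had 67.3, 74.7, 69.6 and 76.2 CPM in the knockouts and 78.6, 90.5 and 71.2 CPM in the controls, with overlap. Smarcb1, a nucleosome-contacting subunit that non-canonical BAF lacks, had 101, 98.4, 109 and 99.1 CPM in the knockouts and 92.4, 98.4 and 92.6 CPM in the controls. The highest control lay inside the knockout range.

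The other core members overlapped between groups. The scaffolds Smarcc1 and Smarcc2 averaged 260 ± 30 and 201 ± 17 CPM in knockouts (SD, n = 4), against 288 ± 12 and 215 ± 3 CPM in controls (SD, n = 3). The log2 fold change of Smarcc1 was -0.15, and -0.07 without knockout replicate 3. Smarcd2, which mouse and human studies tie to granulocyte formation, averaged 158 ± 12 CPM in knockouts and 155 ± 2 CPM in controls, with a 95% interval of -0.14 to 0.21 for the log2 fold change. It was the main Smarcd form, at 75.9% to 80.8% of the family's FPKM in knockouts and 77.1% to 80.8% in controls, while Smarcd3 made up at most 0.274% in any library. The actin-related subunit Actl6a averaged 151 ± 9 CPM in knockouts and 139 ± 11 CPM in controls, and Smarce1 159 ± 11 CPM and 157 ± 5 CPM. Some of these values may hold reads of neighbours, since 25 of the 46 members share exon bases with another annotated gene, 9 of them with a protein-coding one, for example Actl6a with Mrpl47.

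**Figure D5:**
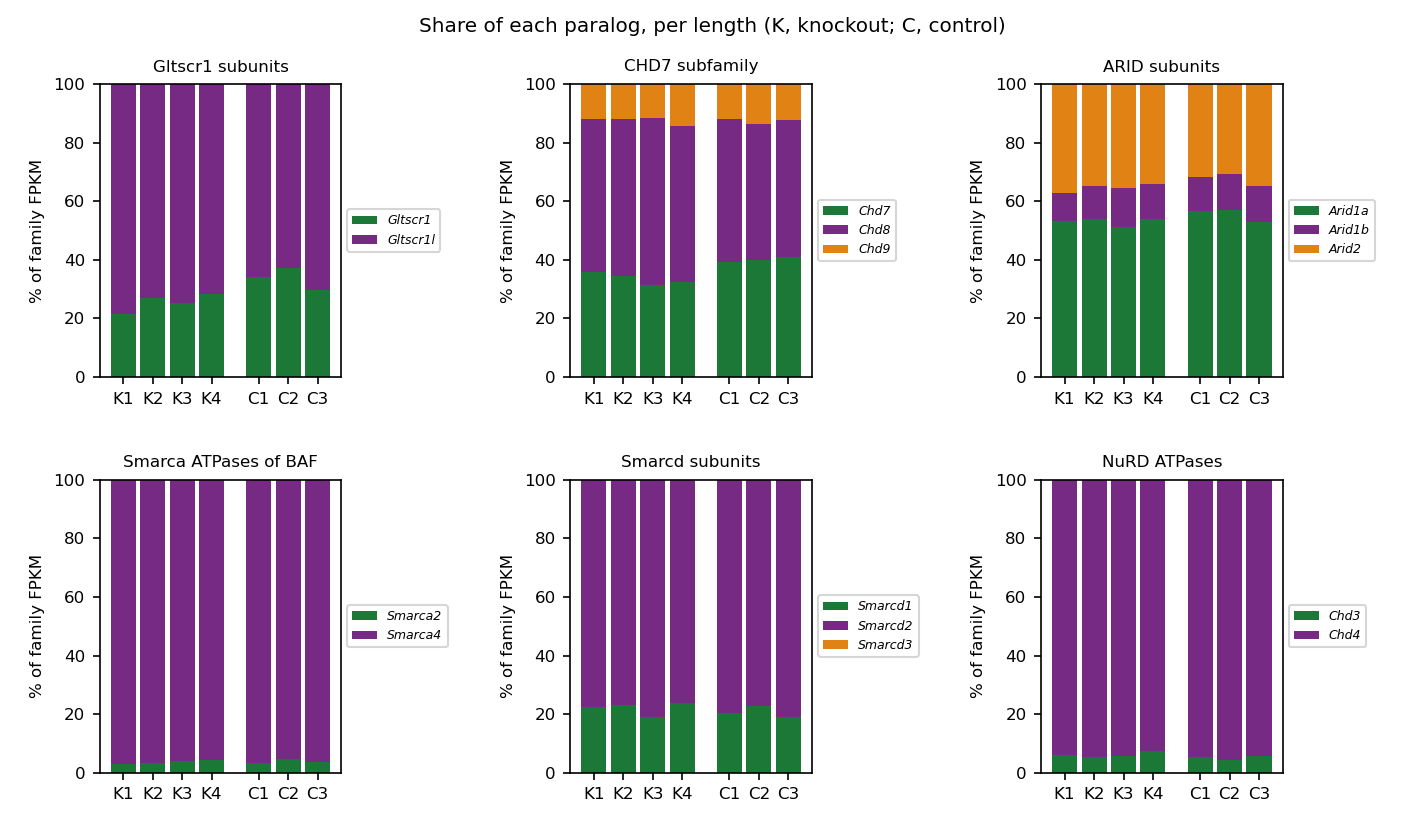
Share of each paralog in the summed FPKM of its family, in percent, for 4 knockout (K1 to K4) and 3 control libraries (C1 to C3). Gltscr1l and Chd8 take a larger share in every knockout than in any control, and Smarca4, Smarcd2 and Chd4 are the main forms of their families in all libraries. The level of Chd8 itself was not higher, with a mean of 154 CPM in knockouts and 167 CPM in controls.

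ISWI remodellers space nucleosomes with a Smarca5 or Smarca1 motor and a large partner. Smarca5 had 399, 370, 368 and 337 CPM in the knockouts, against 363, 323 and 341 CPM in the controls, with overlap and a 95% interval of -0.09 to 0.30 for the log2 fold change. Smarca1 was scarce, with 4.31, 1.85, 0.947 and 3.02 CPM in the knockouts and 2.86, 1.82 and 2.30 CPM in the controls. The knockouts spread on both sides of the controls, and the log2 fold change of 0.12 was 0.39 without knockout replicate 3.

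Of the ISWI partners, Baz1a was set apart between groups. Baz1a (chromosome 12, 54892989 to 55014348, minus strand), which pairs with Smarca5 in the ACF and CHRAC complexes, had 241, 226, 189 and 220 CPM in the knockouts, against 269.7, 264 and 253 CPM in the controls. Each knockout was below each control. The log2 fold change was -0.26 (SE 0.09, 95% interval -0.47 to -0.05) and did not pass (adjusted p = 0.333 in edgeR, 0.246 in DESeq2), and it was -0.20 without knockout replicate 3. Bptf, the largest subunit of the NURF complex, had 164, 180.4, 124 and 191 CPM in the knockouts and 187, 191 and 177 CPM in the controls, with overlap (log2 fold change -0.17, and -0.05 without knockout replicate 3). Baz1b and Baz2a also overlapped, with log2 fold changes of -0.09 and -0.17, and -0.02 and -0.05 without knockout replicate 3.

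Among CHD motors, Chd7 had the largest negative difference of all 46 members. Chd7 (chromosome 4, 8690406 to 8867659, plus strand), an enhancer-associated remodeller mutated in human CHARGE syndrome, had 90.3, 93.2, 57.6 and 81.1 CPM in the knockouts, against 115, 121 and 119 CPM in the controls. Every knockout was below every control, and knockout replicate 3 was the lowest. The log2 fold change was -0.56 (SE 0.14, 95% interval -0.88 to -0.23), which is 0.679 of the control level. It did not pass in edgeR (adjusted p = 0.160) and passed in DESeq2 (adjusted p = 0.029). The authors' deposited table gives -0.56 with an adjusted p = 0.034.

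Because Chd7 has long exons in sum (13786 bases), it was read again with the length trend of each library removed. The log2 fold change was then -0.45 (SE 0.10) with an edgeR adjusted p = 0.102. Without knockout replicate 3 it was -0.43 (SE 0.07) with an adjusted p = 0.043. Its relatives Chd8 and Chd9, also long, did not separate the groups. Chd8 had 157, 174, 126 and 159 CPM in the knockouts and 172, 168 and 161 CPM in the controls, and Chd9 50.4, 54.2, 35.6 and 60.8 CPM in the knockouts and 58.8, 70.3 and 60.0 CPM in the controls. Their log2 fold changes were -0.11 and -0.33, and -0.03 and -0.19 without knockout replicate 3. Within the 3 relatives, Chd7 took 36.0%, 34.4%, 31.3% and 32.4% of the FPKM in the knockouts and 39.3%, 40.0% and 41.1% in the controls, without overlap. The exon sums of Chd8 and Chd9 are 16523 and 23148 bases, and the deviations of knockout replicate 3 were -0.61 for Chd7, -0.37 for Chd8 and -0.63 for Chd9. The part of the length trend in this share was not tested. With the longest transcript as length, Chd7 took 26.0% in the knockouts and 31.8% in the controls on average.

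Chd4, the motor of the NuRD complex, was the CHD gene with the highest level. It had 722, 716, 591 and 710.4 CPM in the knockouts, against 724, 710.2 and 680.0 CPM in the controls, with a 95% interval of -0.25 to 0.17 for the log2 fold change. Knockout replicate 3 was the only knockout below every control. Chd3, the alternative NuRD motor, had 49.4, 42.5, 37.5 and 60.7 CPM in the knockouts and 44.1, 34.8 and 43.7 CPM in the controls, with overlap (log2 fold change 0.22, SE 0.16; edgeR adjusted p = 0.681; 0.32 without knockout replicate 3). Chd1 and Chd2, which act on transcribed genes, had log2 fold changes of -0.06 and 0.04, and 0.04 and 0.16 without knockout replicate 3.

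SRCAP and EP400, the motor of the TIP60 complex, place the histone variant H2A.Z in nucleosomes, and INO80 slides and edits such nucleosomes. Ino80 had 81.3, 87.4, 64.6 and 81.6 CPM in the knockouts and 89.4, 90.0 and 74.9 CPM in the controls. Srcap had 165, 184, 126 and 204 CPM in the knockouts and 181, 202 and 172 CPM in the controls. Ep400 had 256, 286, 182 and 291 CPM in the knockouts and 303, 288 and 294 CPM in the controls. The groups overlapped for all 3 motors, and knockout replicate 3 was the lowest library for each. Their log2 fold changes of -0.11, -0.12 and -0.22 became -0.02, -0.005 and -0.09 without it. Srcap shares 9738 exon bases with the predicted gene Gm42715 in the annotation, so its counts are uncertain.

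The ring-forming ATPases Ruvbl1 and Ruvbl2, shared by these complexes, have short transcripts. Ruvbl2 had 243, 213, 271 and 205 CPM in the knockouts, against 224, 199 and 204 CPM in the controls, with its highest value in knockout replicate 3 (log2 fold change 0.16, SE 0.11; edgeR adjusted p = 0.647; 0.08 without that library). Ruvbl1 averaged 171 ± 15 CPM in knockouts and 162 ± 8 CPM in controls, with overlap.

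The remaining SNF2 motors also overlapped between groups. Hells, which supports DNA methylation at repeats and is high in dividing cells, had 158, 135, 111 and 126 CPM in the knockouts, against 140.2, 128 and 127 CPM in the controls (95% interval -0.25 to 0.26 on the log2 scale). The proliferation markers, 12 of 12 detected, summed to 5101 to 5543 CPM in knockouts and 5054 to 5521 CPM in controls. Smarcad1, which works at replicated chromatin and at DNA breaks, had 62.1, 57.4, 54.1 and 58.3 CPM in the knockouts and 60.9, 58.7 and 59.1 CPM in the controls. Atrx, an X-linked motor that places histone variants at repeats, had 205, 226, 171 and 265 CPM in the knockouts and 228, 284 and 239 CPM in the controls. Its log2 fold change was -0.21 (SE 0.14, edgeR adjusted p = 0.654), and -0.24 with the level of Xist as a covariate. Xist had 0.11, 740, 0.19 and 0.29 CPM in the knockouts and 756, 0.37 and 802 CPM in the controls. Libraries with high Xist were thus not evenly spread over the groups, which the covariate can separate from genotype only in part. Atrx, with 21757 exon bases, is among the longest members. Its log2 fold change was -0.11 without knockout replicate 3 and -0.03 with the length trend removed.

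Per length, Chd4, Ruvbl1, Ruvbl2 and Smarca4 led the members in both groups. Chd4, Ruvbl1, Ruvbl2 and Smarca4 had 85.4 ± 7.8, 90.1 ± 8.0, 80.3 ± 10.4 and 60.2 ± 3.6 FPKM in the knockouts (SD, n = 4), against 87.9 ± 2.8, 85.2 ± 4.3, 72.0 ± 4.5 and 61.0 ± 1.9 FPKM in the controls (SD, n = 3). Chd4 and Ruvbl1 did not differ beyond their spread in either group. Phf10, Smarca5 and Smarcd2 followed, at 44.1 to 48.0 FPKM in knockouts and 43.1 to 45.8 FPKM in controls, within each other's spread. At the low end, Dpf1, Smarca1 and Smarcd3 had 1.02 ± 0.20, 0.414 ± 0.239 and 0.097 ± 0.047 FPKM in knockouts and 0.584 ± 0.013, 0.380 ± 0.085 and 0.103 ± 0.033 FPKM in controls. Chd7 ranked 35 of 46 in the knockouts and 30 of 46 in the controls, and Gltscr1l 29 and 34. These orders rest on the union of annotated exons: with the longest transcript as length, Actl6a moved to rank 4 in the controls, from 11.

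A wider list of 53 other remodeller genes (further NuRD, INO80, SRCAP, TIP60, ISWI and SNF2 genes, of which 52 were tested) was read in the same way. As among the members, edgeR called 0 of them, where it called 0.559% of all tested genes. DESeq2 also called 0, where it called 3 of the 46 members and 2.68% of the genes it gave an adjusted p. An unadjusted p under 0.05 in edgeR was found for 4, 2 higher and 2 lower, where 10.9% of all tested genes had one. The groups did not overlap for 5 of the 52, 1 higher and 4 lower, against 11.2% of all tested genes (4.38% higher and 6.81% lower). The 3 with the smallest p were Mbd3, Baz2b and Rad54b. Mbd3, a NuRD subunit, had 193, 178, 208 and 177 CPM in the knockouts, against 162, 162 and 157 CPM in the controls (log2 fold change 0.24, SE 0.08; edgeR adjusted p = 0.299). Baz2b, an ISWI partner, had 41.9, 54.1, 37.4 and 59.1 CPM in the knockouts, against 59.8, 77.1 and 63.6 CPM in the controls (log2 fold change -0.47, SE 0.16; edgeR adjusted p = 0.324). Rad54b, a recombination motor, averaged 20.3 ± 2.6 CPM in knockouts and 25.3 ± 1.7 CPM in controls. The groups did not overlap for these 3.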

How the data were processed

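The submitters' processing notes name HISAT2, featureCounts, DESeq2 and the build mm10, with no order or role. Versions, annotation, strand setting and the handling of shared reads: not given in the sources used here. The deposited count table holds raw counts per gene symbol for 7 polyA libraries (TruSeq Stranded mRNA kit, per the labels). The authors' deposited comparison table holds log2 fold changes, p-values, standard errors and test scores, and a signal (counts divided by size factors); its fold changes run knockout over control.

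Counts were filtered with filterByExpr, scaled by TMM and tested with edgeR 4.0.16 (quasi-likelihood, R 4.3.3) over all genes, with group as the only term and an adjusted p under 0.05 as the call. SE and 95% intervals come from that fit. CPM is the count over the TMM-scaled total, as edgeR gives it; FPKM divides it by the union of exons in GENCODE vM21 (GRCm38, the assembly mm10 names), in which Gltscr1 and Gltscr1l are Bicra and Bicral. Coordinates are 1-based from that annotation. Length deviations use log2 CPM with a prior count of 2.

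Members, gene lists and tests were chosen with earlier results of these data known. Named in full are members that passed, the 3 with the smallest p per complex, the non-canonical BAF pair and the motors; Dpf2 and the other core genes were added to describe their families. Alternatives were other scalings and filters, DESeq2 1.42.0, limma-voom 3.58.1, a replicate block, Xist level as covariate and leaving out each library. Removing the length trend (lowess offset) was added after the data were seen. The fit was also run on counts simulated from its own model, without a length trend. Such counts cannot show how well the fit does on these libraries. Libraries of 1 group differed by more than sampling noise (chi-square per degree of freedom 9.16 to 46.3), so none was counted as a duplicate.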

Additional observations from a re-analysis of the deposited data

Results flagged for a closer look

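In 3 of 45 remodeller genes tested for it, 1 knockout library lay far from the other 3 by Dixon's criterion (gap over range above 0.829). Chance flags about 1 in 20 groups, a share close to this one. All 3 were low values of knockout replicate 3, with Smarca4 only just over the bound (0.831). Smarca4 had 355 CPM there against 397 to 406 CPM in the other knockouts, Pbrm1 129 CPM against 174 to 177 CPM, and Chd4 591 CPM against 710.4 to 722 CPM. The exon lengths of these genes are 6475, 8846 and 8019 bases.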

How the results depend on the processing

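The 0 calls among members held in edgeR under both other scalings, both other filters, the replicate block, the Xist covariate, the removed length trend and limma-voom. DESeq2 called 2 members higher (Gltscr1l, Dpf1) and 1 lower (Chd7). With the Xist covariate, edgeR gave Gltscr1l, Dpf1 and Chd7 log2 fold changes of 0.48, 0.77 and -0.51. Their edgeR adjusted p was then 0.196, 0.366 and 0.385. Leaving out single libraries gave 0 to 1 higher and 0 to 1 lower, the calls being Gltscr1l and Chd7 without knockout replicate 3. Over all genes the calls numbered 82, and 228 with no filter, 393 with DESeq2 and 20 to 120 with 1 library left out (20 when control replicate 3 was left out, 49 for control replicate 2, and 51, 21, 120 and 37 for knockout replicates 1, 2, 3 and 4); the cause was not tested.

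The replicate block, on 6 libraries since knockout replicate 4 has no partner, gave 126 calls over all genes, 0 members and 2 other remodeller genes lower (Baz2b, adjusted p = 0.040, and Ino80d, 0.032). Same-numbered libraries had correlations of 0.17, -0.02 and -0.005 in their deviations from the group means, and other pairs had -0.19 to 0.13. These few correlations cannot decide whether the numbers pair the libraries.

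Of 46 members, 28 kept their sign in every setting. The other 18 had main log2 fold changes of at most 0.12 in size, and none was called with either sign. With the length trend removed the log2 fold change was 0.024 for Smarca2, 0.00434 for Smarca4, 0.026 for Dpf2, 0.014 for Arid2, 0.011 for Pbrm1, 0.025 for Baz1b, 0.00469 for Chd4, 0.022 for Chd8 and 0.078 for Smarcad1. With the block it was 0.011 for Dpf2, -0.15 for Smarca1 and -0.023 for Chd2, with limma-voom -0.080 for Smarca1 and -0.00529 for Hells, and with total counts -0.00757 for Hells. Leaving out single libraries gave -0.20 to 0.048 for Smarca2, -0.044 to 0.022 for Smarca4, -0.021 to 0.056 for Smarcd2, -0.42 to 0.16 for Smarcd3, -0.029 to 0.047 for Smarce1, -0.020 to 0.067 for Bcl7a, -0.032 to 0.022 for Dpf2 and -0.12 to 0.042 for Arid2. It gave -0.082 to 0.057 for Pbrm1, -0.036 to 0.13 for Phf10, -0.27 to 0.39 for Smarca1, -0.13 to 0.035 for Chd1, -0.044 to 0.16 for Chd2, -0.074 to 0.023 for Chd4 and -0.096 to 0.084 for Hells. The difference in paralog shares between knockouts and controls moved by less than 1 SD in each of 256 recomputed values. The shares themselves depend on the length used: with the longest transcript, 23 of 32 moved by more than 1 SD in at least 1 group. The difference between groups changed sign for 1 of the 32, Bcl7c. It took 26.4% in knockouts and 26.6% in controls, and 20.64% and 20.58% with the longest transcript. Depth limits Smarcd3, Smarca1 and Dpf1, which had 5 to 129 reads a library.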
